A study of Mus musculus with 48 samples.

Results

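The step from the end of the circadian day to the start of the night, CT9 to CT13, was followed in the colon of Bmal1IEC-/- mice. The 8 Bmal1IEC-/- mice of these 2 circadian times, 4 at each, were taken from 48 mice (2 genotypes, 6 circadian times 4 h apart, 4 mice per group), and the 8 control mice of the same times were set beside them. In Bmal1IEC-/- mice, both copies of Bmal1 are floxed and a Villin-Cre transgene removes the gene in intestinal epithelial cells. The controls were littermates that carry the floxed gene without Cre, so the floxed alleles are common to both genotypes. All were single-housed male mice on the C57BL/6J background with running wheels and chow at all hours, and were killed at 18 to 20 weeks of age on the second day of darkness with no other treatment given. Villin-Cre acts in the epithelium, so the muscle, connective tissue, nerves, vessels and immune cells of the sampled colon kept Bmal1. Poly(A) RNA of colon tissue was sequenced, and reads were counted per gene.

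BMAL1 pairs with CLOCK or NPAS2 to switch on genes that carry E-boxes in their regulatory DNA, among them the Period and Cryptochrome genes, the Rev-erb genes Nr1d1 and Nr1d2, and the transcription factor Dbp. PER and CRY proteins then shut off BMAL1 and CLOCK, and the REV-ERB repressors, opposed by the ROR activators, act on a second set that holds Arntl (the gene symbol of Bmal1), Npas2, Cry1 and Nfil3. Rhythms of body temperature, feeding and glucocorticoid hormones also reach the colon and can move genes in cells without a clock of their own, and nocturnal mice begin to eat and run at the step described here.

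Each mouse had between 3308498 and 4785844 reads counted on genes, and a count of 0 allows up to 3 counts at this depth, a floor that covers counting error only. Epithelial markers were high in all 8 mice (Epcam, 3510 to 4500 normalized counts at CT9 and 3962 to 4224 at CT13), as were those of smooth muscle (Myh11, 5141 to 7949 and 5572 to 6778). The 7 small intestine markers summed to 80 to 121 at CT9 and 64.8 to 196 at CT13, mostly Alpi and Fabp6. At CT13 the highest values were 61.6 for Fabp6 (median 8.42), 8.8 for Gata4 (median 0.436) and 5.6 for Defa24 (median 0.477). Apoa4 and Lct reached at most 8.24. Normalized counts are counts divided by DESeq2 size factors over the 48 mice. A step is the log2 ratio of CT13 to CT9 from edgeR's quasi-likelihood fit over the 16 mice of both genotypes. A gene is called where its p-value, adjusted by Benjamini and Hochberg over all genes tested, was under 0.05. Per-mouse values are listed for SV400, SV402, SV410 and SV418 at CT9 and for SV395, SV448, SV449 and SV450 at CT13, in that order. Per the methods, each mouse was a separate animal. Changes per cell and changes in the share of a cell type cannot be told apart in bulk tissue.

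One mouse at CT9, SV418, stood apart in the clock genes. Over the 20 clock genes tested, its root mean square distance (log2 scale) was 0.709 to the mean of the other 3 Bmal1IEC-/- mice at CT9 and 0.331 to the mean at CT13. The other 3 mice at CT9 lay closest to CT9 (0.28 to 0.483, against 0.579 to 0.819 to CT13). Over all 13959 genes tested, SV418 was 0.495 from CT9 and 0.43 from CT13, and 0.416 from CT5, the nearest of the 6 times. SV400 (0.406, against 0.447 to CT9) and SV410 (0.455, against 0.483) also lay nearest to CT5, so over all genes SV418 shared its nearest time with 2 of the other 3. The median SD of a gene over the 4 mice was 0.256 (log2 scale) at CT9, 0.231 without SV418, and 0.16 at CT13. Because SV418 was singled out by values of the very genes described here, each result is given with it. For the clock genes, larger steps and smaller p-values without it follow in part from that choice. Calls of the Bmal1IEC-/- step that change without it are counted beside them. Steps, medians and other counts can also change without it and are not always given.

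Of 13959 genes tested, 29 were higher (0.208%) and 66 lower (0.473%) at CT13 in Bmal1IEC-/- mice, and 20 and 61 of them also passed a fold of 1.5. All 4 mice at CT13 lay above all 4 at CT9 in 441 genes (3.16%) and below them in 465 (3.33%), among them 26 of the 29 and 61 of the 66 genes called. With SV418 left out of the same 13959 genes, which leaves fewer mice to separate, 1033 lay above and 1022 below. Without SV418, 180 genes were higher (1.27%) and 224 lower (1.58%) of 14155 tested, which took in 94 of the 95 genes called with it. The exception was Trim24, whose adjusted p passed from 0.0476 to 0.0549. The count also rested on single mice at CT13. It was 27 without SV395, 10 without SV448, 26 without SV449 and 0 without SV450, where 1360 genes had an unadjusted p under 0.05 against 1891 with all mice. Of the other mice at CT9, leaving out SV400 gave 58 genes, SV402 65 and SV410 27. Without the control mice SV412 and SV415 of CT9, which enter through the shared spread, it was 58 and 63. Each of the 34 called genes among those chosen for naming kept its direction with each Bmal1IEC-/- mouse left out in turn. Most of them did not overlap between the times, and for those this result was fixed in advance and is no check.

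**Figure D1:**
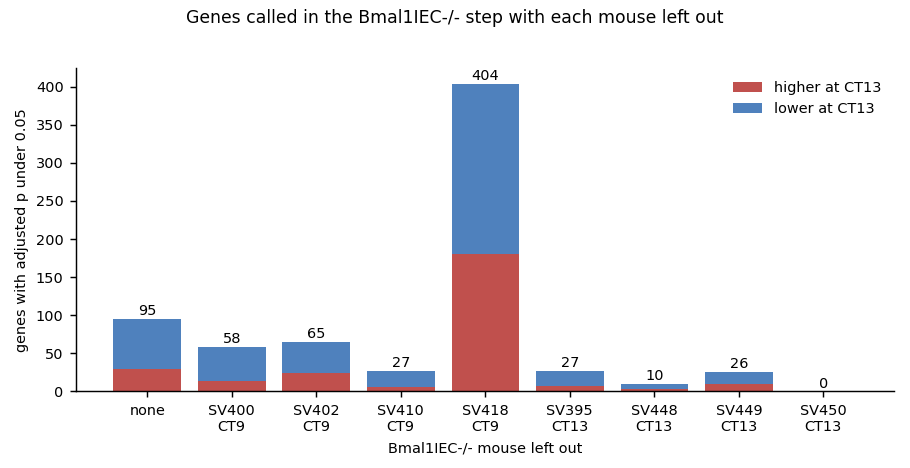
Number of genes with an adjusted p under 0.05 in the Bmal1IEC-/- step (y axis) with all 8 Bmal1IEC-/- mice (none) and with each left out in turn (x axis, mouse and circadian time), split into genes higher (red) and lower (blue) at CT13. The count is 95 with all mice, 404 without SV418 at CT9 and 0 without SV450 at CT13.

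Arntl, the deleted gene (ENSMUSG00000055116, chromosome 7, 113207465 to 113314126), had 104, 84.9, 105 and 157 normalized counts at CT9 and 107, 123, 129.8 and 102 at CT13 in Bmal1IEC-/- mice. The groups overlapped, and the step was 0.047 (SE 0.21, adjusted p = 0.948). Control mice had 15.8 to 34.9 at CT9 and 17.2 to 40.1 at CT13, below all 8 Bmal1IEC-/- mice. The whole-gene count takes in cells that Cre does not reach and exons outside the deleted part, and does not check the labels. Nr1d1, Dbp and Ciart, which BMAL1 switches on, were lower at CT9 in all 4 Bmal1IEC-/- mice than in the lowest control mouse.

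3 of the 20 clock genes tested were called in Bmal1IEC-/- mice, Nr1d1 and Dbp lower and Per2 higher. Of all genes tested, 0.473% were called lower and 0.208% higher. Nr1d1 (ENSMUSG00000020889, chromosome 11, 98767932 to 98775333), which encodes the repressor REV-ERBα, had 146, 201, 245 and 59.2 normalized counts at CT9 and 44.8, 66.7, 61.1 and 57.6 at CT13. SV418 lay within the CT13 mice and the other CT9 mice above them. The step was -1.51 (SE 0.28, adjusted p = 0.0202) with all mice and -1.77 (adjusted p = 0.000225) without SV418. Control mice had 406 to 704 at CT9 and 117 to 159 at CT13, a step of -1.95 (adjusted p = 9.98e-05).

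Dbp, a transcription factor that carries the clock's output to many genes, had 114, 138, 187 and 62.5 normalized counts at CT9 and 43.2, 60, 73.7 and 43.6 at CT13, again with SV418 inside the CT13 range. Its step was -1.19 (SE 0.26, adjusted p = 0.0402), against -1.56 (adjusted p = 0.000251) in control mice, which had 256 to 466 at CT9 and 103 to 139.7 at CT13. Ciart, a repressor of CLOCK and BMAL1, had 40.3, 38.5, 56.5 and 15.3 normalized counts at CT9 and 12.8, 17.2, 24.3 and 15.7 at CT13. It was not called with all mice, -1.10 (SE 0.29, adjusted p = 0.0818), and was called without SV418, -1.35 (adjusted p = 0.00727). SV418 was picked by its clock genes, so the second call is no independent support for a step in Ciart. In Nr1d2, the second Rev-erb gene, SV418 had 161 normalized counts where the other CT9 mice had 227 to 235. Its step did not pass with SV418, -0.32 (SE 0.15, adjusted p = 0.352), or without it, -0.43 (adjusted p = 0.101).

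Per2, a component of the repressor complex, had 228, 263, 211 and 269.6 normalized counts at CT9 and 435, 386, 369 and 449 at CT13. Every CT13 mouse lay above every CT9 mouse, SV418 included, and the step was 0.76 (SE 0.15, adjusted p = 0.0257). Control mice had 217 to 332 at CT9 and 594 to 969.6 at CT13, a step of 1.53 (adjusted p = 7.14e-06), and the difference of the steps, -0.78 (adjusted p = 0.374), did not pass the test. Per1 (0.30, adjusted p = 0.578) and Per3 (0.26, adjusted p = 0.523), its paralogs, were not called in Bmal1IEC-/- mice. Neither were Tef and Hlf of the family of Dbp (0.075, adjusted p = 0.852 and -0.28, adjusted p = 0.553).

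Cry1 and Nfil3, on which REV-ERB and ROR act, were not called in Bmal1IEC-/- mice and rose in control mice. Cry1, a Cryptochrome repressor, had 226, 262, 264 and 273 normalized counts at CT9 and 253, 259, 250.4 and 285 at CT13, a step of 0.037 (SE 0.17, adjusted p = 0.95). Control mice had 38 to 83.3 at CT9 and 118 to 198 at CT13 and rose by 1.53 (adjusted p = 0.000114). Nfil3, a repressor that competes with DBP for its sites, had 90.6, 90.1, 91.5 and 95.3 normalized counts at CT9 and 72.8, 89.6, 77 and 112 at CT13, a step of -0.065 (SE 0.16, adjusted p = 0.905). Control mice had 8.43 to 18.8 at CT9 and 33.4 to 39.5 at CT13 and rose by 1.52 (adjusted p = 0.000251). For both, the difference of the steps missed the threshold, -1.49 (adjusted p = 0.0534) for Cry1 and -1.58 (adjusted p = 0.0534) for Nfil3. In both genes, all 8 Bmal1IEC-/- mice lay above all 8 control mice. The test of the difference of the steps called 1 gene of 13959 (0.00716%) and, without SV418, 1 gene of 14155 (0.00706%). Clock and Npas2, the partners of BMAL1, had steps of 0.33 (adjusted p = 0.384) and 0.13 (adjusted p = 0.763). Arntl2, 0.19 (adjusted p = 0.853), and Rora, 0.11 (adjusted p = 0.82), were not called either, and nor were Cry2, Bhlhe40 and Bhlhe41.

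**Figure D2:**
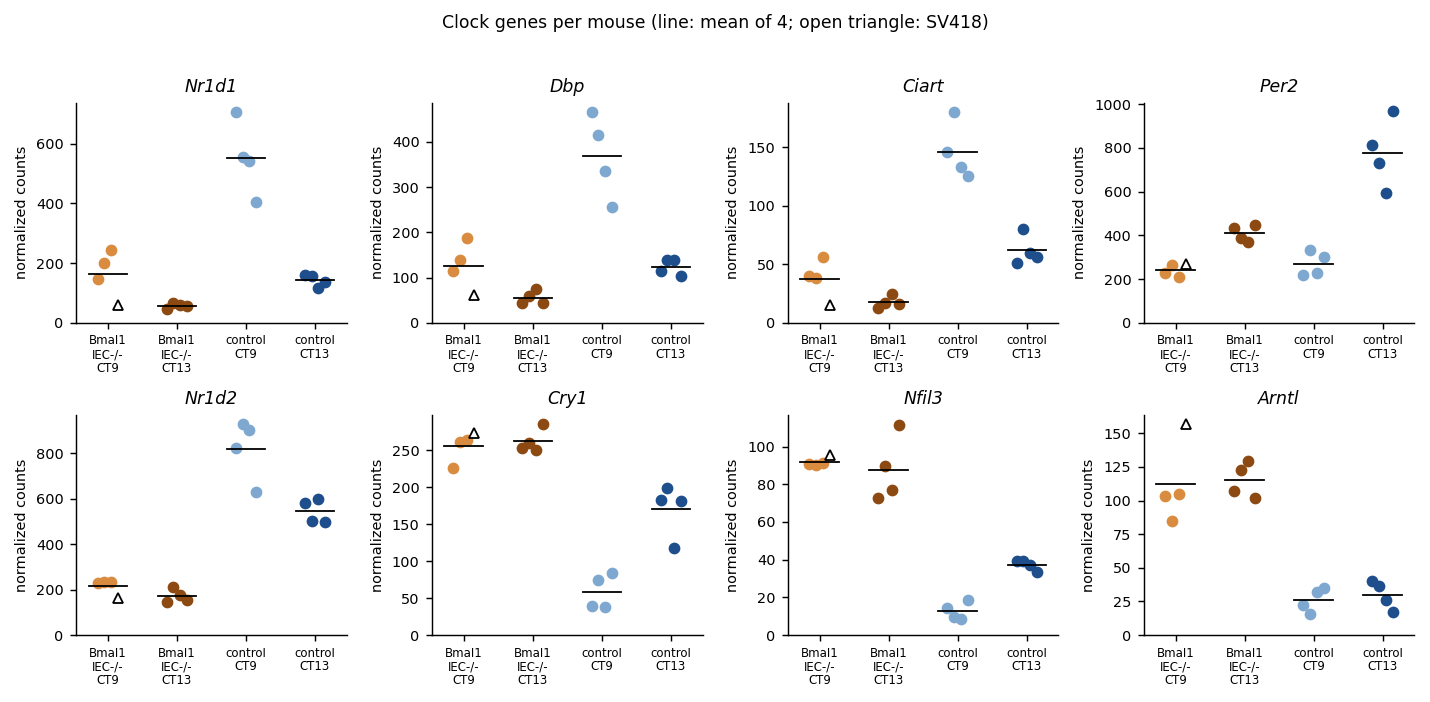
Normalized counts (y axes, linear, from 0) of 8 clock genes in each mouse of the 4 groups (x axes, Bmal1IEC-/- in orange and brown, control in blue), with lines at the means of 4 mice and an open triangle for SV418. The means of Nr1d1, Dbp, Ciart and Nr1d2 are lower and that of Per2 is higher at CT13 in both genotypes, SV418 sits with the CT13 mice in Nr1d1, Dbp and Ciart, and Cry1 and Nfil3 rise in control mice and stay under the values of all Bmal1IEC-/- mice.

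In Ciart, the clock gene whose call turned on SV418, the promoter window (RefSeq, GRCm38.p6, 250 bases before to 50 after the start site) held the palindromic E-box CACGTG to which BMAL1 and CLOCK bind (searched on both strands), upstream of the start. The letters occurred in 4 of the 8 genes of the repressor arm with a window, and in 11.4% of the windows of all genes tested. Of the genes called lower 6 of 53 (11.3%) held them, and of those called higher 3 of 17 (17.6%). Without SV418 it was 19 of 171 (11.1%) and 15 of 130 (11.5%). Ciart held 3 copies (chromosome 3, minus strand), shown 5′ to 3′ with the E-box in capitals. They are matches of letters, and binding was not measured. The last pair of stretches overlap.
Ciart, chr3:95882329-95882354: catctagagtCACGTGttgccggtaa
Ciart, chr3:95882271-95882296: cagggggaggCACGTGcagaaccgca
Ciart, chr3:95882257-95882282: tgcagaaccgCACGTGtctgggaggg

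Of 25 genes of sterol synthesis and uptake, 8 were lower at CT13 and none higher, and 11 were lower without SV418. Over all genes tested, 0.473% were called lower, and 1.58% without SV418. In 16 of the 25, against 3.33% of all genes, every CT13 mouse lay below every CT9 mouse (median step -0.50, against -0.000683 over all genes tested). Without SV418 it was 17, against 1022 of 13959 genes. The mean log2 level of the 25 genes was 7.67, 7.80, 7.84 and 7.74 at CT9 and 7.35, 7.21, 7.23 and 7.13 at CT13, with SV418 inside the range of the other CT9 mice. Insig1 (ENSMUSG00000045294, chromosome 5, 28071363 to 28078662) holds the sterol sensor in the endoplasmic reticulum and is itself a target of the sterol-regulated factor SREBP2. It had 226, 231, 471 and 273 normalized counts at CT9 and 122, 117, 106 and 78.6 at CT13. SV410 was the highest mouse, no values overlapped, and the step was -1.49 (SE 0.25, adjusted p = 0.0135), about the same size without SV418, -1.53 (adjusted p = 0.00723).

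Hmgcs1, which makes the precursor of mevalonate, had 590.5, 456, 688 and 609 normalized counts at CT9 and 297, 336, 291 and 284 at CT13 and a step of -0.95 (SE 0.17, adjusted p = 0.0144). Later enzymes of the pathway moved with it. Fdft1, which makes squalene, had 308, 370.1, 520.5 and 426 normalized counts at CT9 and 238, 177, 233 and 179.8 at CT13, a step of -0.96 (SE 0.18, adjusted p = 0.0228). Lss, which closes it to lanosterol, had 318, 319, 259 and 283 normalized counts at CT9 and 182, 214, 190.1 and 175 at CT13, a step of -0.63 (SE 0.14, adjusted p = 0.0402). Cyp51 and Msmo1, which remove methyl groups from lanosterol, had steps of -0.73 (SE 0.13, adjusted p = 0.0144) and -0.84 (SE 0.15, adjusted p = 0.0144), and in both SV418 was the highest of the CT9 mice. Nsdhl, the next enzyme, fell by 0.50 (log2, adjusted p = 0.0466). None of these values overlapped between the times. Lss and Nsdhl, along with the members of lists given below as not called, were named after their values were seen.

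The steps of late enzymes, Dhcr7, -0.15 (adjusted p = 0.588), Sc5d, -0.0018 (adjusted p = 0.996), and Ebp, 0.065 (adjusted p = 0.84), were near 0. Srebf2, the gene of SREBP2, had -0.18 (adjusted p = 0.402). In control mice, 12 of the 25 were called lower and 2 higher (median -0.48), and no member passed the test of the difference of the steps. Genes of fatty acid synthesis, which answer to the related factor SREBP1, had no call among 18 tested (median -0.082), and without SV418 had 1, Srebf1, the gene of SREBP1 itself (-0.57, adjusted p = 0.0204).

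Hmgcs1 was the 1 gene of the list whose window held the sterol element TCACNCCAC, searched on both strands, of 17 genes with a window. The share was 1.41% of the windows of all genes tested, and 3 of 53 (5.66%) of those of the genes called lower. Among the genes called lower without SV418 it was 3 of 171 (1.75%). The stretch, at bases -137 to -129 from the RefSeq start on the plus strand, is shown with the element in capitals. It is a match to letters that SREBP factors can bind, and binding was not measured.
Hmgcs1, chr13:119690204-119690232: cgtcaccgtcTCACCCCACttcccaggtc

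Of 28 genes of mitosis, 5 were lower at CT13 and none higher, 20 were lower without SV418, and the point estimate was below 0 in all 28 (median -0.64, -0.75 without SV418). Of all genes tested, 0.473% were called lower, 1.58% without SV418, and 6995 of 13959 had a point estimate below 0. The mean log2 level was 7.13, 6.66, 6.82 and 6.39 at CT9 and 6.06, 6.04, 6.37 and 6.09 at CT13. SV418 was the lowest CT9 mouse, just above the highest CT13 mouse. Tpx2, which nucleates spindle microtubules, had 146, 123, 147 and 82.2 normalized counts at CT9 and 56.8, 54.3, 67 and 54.1 at CT13. SV418 was again the lowest at CT9, no values overlapped, and the step was -1.10 (SE 0.19, adjusted p = 0.0144).

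Top2a, the topoisomerase that untangles chromosomes, had 724, 435, 402 and 381 normalized counts at CT9 and 255, 229.7, 319.9 and 266 at CT13. SV400 stood above the other CT9 mice, and the step was -0.86 (SE 0.18, adjusted p = 0.0354). Plk1, a kinase of mitotic entry, had 315, 362, 421 and 358 normalized counts at CT9 and 237, 276, 257 and 253 at CT13, a step of -0.51 (SE 0.093, adjusted p = 0.0171). The kinesin Kif20a and the phosphatase Cdc25b, also named after their values were seen, had steps of -0.76 (SE 0.17, adjusted p = 0.0411) and -0.57 (SE 0.13, adjusted p = 0.0476). The proliferation marker Mki67 was called without SV418, -0.71 (adjusted p = 0.0265), and not with it, -0.61 (adjusted p = 0.094). In control mice 27 of the 28 were called lower (median -1.13), and none passed the test of the difference of the steps.

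Of 30 genes of DNA replication, 1 was called with all mice and 6 without SV418, all lower, against 0.473% and 1.58% of all genes tested. In 8, against 3.33% of all genes, every CT13 mouse lay below every CT9 mouse (median step -0.51). Without SV418 it was 15, against 1022 of 13959 genes. Clspn, which guards replication forks, had 53.1, 45.5, 55.3 and 36.2 normalized counts at CT9 and 21.6, 18.1, 18.4 and 13.1 at CT13. The times did not overlap, and the step was -1.41 (SE 0.22, adjusted p = 0.0135). SV400 had the highest mean of the list, 6.39, against 5.68 to 5.94 in the other CT9 mice and 5.29 to 5.55 at CT13. Mcm2 to Mcm7, the replicative helicase, had steps of -0.63 (Mcm5) to -0.20 (Mcm2) and Pcna, the sliding clamp, -0.025, none of them called with all mice. Mcm5 and Mcm7 were among the 6 genes of the list called without SV418. The median in control mice was -0.24, with 4 genes lower. Racgap1, which positions the cleavage furrow, had 222, 153, 174 and 124 normalized counts at CT9 and 106, 75.3, 101 and 81.2 at CT13, a step of -0.88 (SE 0.16, adjusted p = 0.0171). The chromatin protein Hmgb2 had 526, 472, 532 and 408 normalized counts at CT9 and 365, 257, 307 and 248 at CT13, a step of -0.71 (SE 0.12, adjusted p = 0.0144). Neither overlapped between the times. Genes of cell cycle arrest and entry such as Cdkn1a, Wee1 and the D cyclins had no call among 17 (median 0.086), and stem cell and Wnt genes none among 21 (median -0.011). Without SV418 the latter had 1, Grem1, a stromal antagonist of BMP signals (-0.69, adjusted p = 0.0413), at a median of -0.098.

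Of 20 genes of the cytosolic heat shock response, 4 were higher at CT13 and none lower, and 5 were higher without SV418, which added Chordc1 (1.04, adjusted p = 0.0174). Of all genes tested, 0.208% were called higher, and 1.27% without SV418. In 8 of the 20, against 3.16% of all genes, every CT13 mouse lay above every CT9 mouse (median 0.48). Without SV418, 9 lay above and 1 below, against 1033 and 1022 of 13959 genes. The mean log2 level was 7.93, 7.82, 7.72 and 7.77 at CT9 and 8.83, 8.32, 8.29 and 8.70 at CT13, and SV418 was inside the CT9 range. Hsph1 (ENSMUSG00000029657, chromosome 5, 149614287 to 149636376), a nucleotide exchange partner of HSP70, had 212, 173, 113 and 222 normalized counts at CT9 and 1030, 576, 499 and 947 at CT13. SV395 and SV450 were the highest of the CT13 mice, no values overlapped, and the step was 2.08 (SE 0.39, adjusted p = 0.0204).

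Hspa1b, an inducible HSP70, had 28.4, 29.8, 20.3 and 17.5 normalized counts at CT9 and 306, 102, 82.9 and 227 at CT13 (step 2.88, SE 0.65, adjusted p = 0.0438). Its neighbour Hspa1a, near-identical in sequence, had a step of 2.79 (adjusted p = 0.0946), so the split between the pair is uncertain. Dnaja1, a co-chaperone, had 530.1, 431, 396 and 593 normalized counts at CT9 and 1106, 796, 835 and 1068 at CT13, a step of 0.97 (SE 0.20, adjusted p = 0.0375). Hspa8, the constitutive HSP70, named after its values were seen, had 4799, 4272, 4548 and 4657 normalized counts at CT9 and 9392, 6239, 6451 and 9276 at CT13, a step of 0.78 (SE 0.18, adjusted p = 0.0467). No mouse of one time overlapped the other in these 3 genes. Hsp90aa1, 0.84 (adjusted p = 0.123), and Dnajb1, 0.69 (adjusted p = 0.0891), also did not overlap but were not called. Small heat shock proteins Hspb1, -0.045 (adjusted p = 0.958), and Cryab, 0.055 (adjusted p = 0.941), were near 0.

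In control mice 18 of the 20 were called higher (median 0.97). Hspa1b had a step of 5.10 (adjusted p = 9.98e-05) and Hsph1 of 3.14 (adjusted p = 9.98e-05) there. The difference from the Bmal1IEC-/- step was -2.22 (adjusted p = 0.662) for Hspa1b and -1.06 (adjusted p = 0.694) for Hsph1. No member passed that test. Cirbp, an RNA-binding protein that is induced by cold, was lower at CT13 in both genotypes. Bmal1IEC-/- mice had 200.5, 224, 319.5 and 189.6 normalized counts at CT9 and 149.5, 124, 124 and 115 at CT13, with no overlap and a step of -0.86 (SE 0.19, adjusted p = 0.0449), against -1.49 (adjusted p = 0.000155) in control mice. Of the other 3 genes of its list none was called in Bmal1IEC-/- mice. The chaperones of the endoplasmic reticulum had no call among 30 (median 0.070), where control mice had 13 higher (median 0.33), and none of their steps was shown to differ.

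The heat shock motif GAANNTTC, the core to which HSF1 binds, is the same on both strands and was held by 10 of the 16 windows of the list (62.5%). It was held by 4 of 17 (23.5%) of all genes called higher, 4 of 53 (7.55%) of those called lower and 7% of all genes tested. Without SV418, 9 of 130 (6.92%) of the genes called higher and 13 of 171 (7.6%) of those called lower held it, near the share of all genes. The matches upstream of the start of 2 called members are shown with the motif in capitals, Hspa1b from the minus strand and Dnaja1 from the plus strand. Binding of HSF1 was not measured.
Hspa1b, chr17:34959325-34959352: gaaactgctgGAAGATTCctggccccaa
Dnaja1, chr4:40722334-40722361: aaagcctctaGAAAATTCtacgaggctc

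Genes that answer to glucocorticoids included 1 call among 18, against 0.208% of all genes tested called higher. The call was Fkbp5, which tempers the glucocorticoid receptor. It had 624, 816, 671 and 965 normalized counts at CT9 and 1603, 1529, 1243 and 1837 at CT13, with no overlap. The step was 1.02 (SE 0.22, adjusted p = 0.0402), and 1.24 (adjusted p = 0.00148) in control mice. Zbtb16, a transcription factor of the same response, was called without SV418, 2.59 (adjusted p = 0.00887), and not with it, 1.91 (adjusted p = 0.0602). Tsc22d3, 0.51 (adjusted p = 0.263), and Sgk1, 0.64 (adjusted p = 0.268), both direct targets of the receptor, were not called, while 5 of the list were higher in control mice.

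Ion and water transport held 2 calls among 25, both higher, against 0.208% of all genes tested. Without SV418 it held 3, against 1.27%, with the addition of Atp1b1, a subunit of the sodium pump (0.48, adjusted p = 0.0182). Best2, a chloride and bicarbonate channel of goblet cells, had 7.32, 7.88, 16.9 and 11 normalized counts at CT9 and 32, 26.7, 25.1 and 31.4 at CT13, with no overlap and a step of 1.44 (SE 0.24, adjusted p = 0.0135). It rests on few reads, 8, 9, 15 and 10 counts at CT9 and 40, 28, 30 and 36 at CT13. Control mice had 17.5 to 19.7 at CT9 and 23.8 to 30.9 at CT13, a step of 0.58 (adjusted p = 0.101), and the difference was not shown (0.87, adjusted p = 0.582). Hsd11b2, which shields the mineralocorticoid receptor by inactivating glucocorticoid, had 349, 436, 509 and 413 normalized counts at CT9 and 766, 500.5, 574 and 656 at CT13. The highest CT9 mouse, SV410, overlapped the lowest CT13 mouse, SV448. The step was 0.56 (SE 0.13, adjusted p = 0.0449), and 0.55 (adjusted p = 0.00701) in control mice. Goblet cell genes as a list had no call among 21 (median -0.019).

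**Figure D3:**
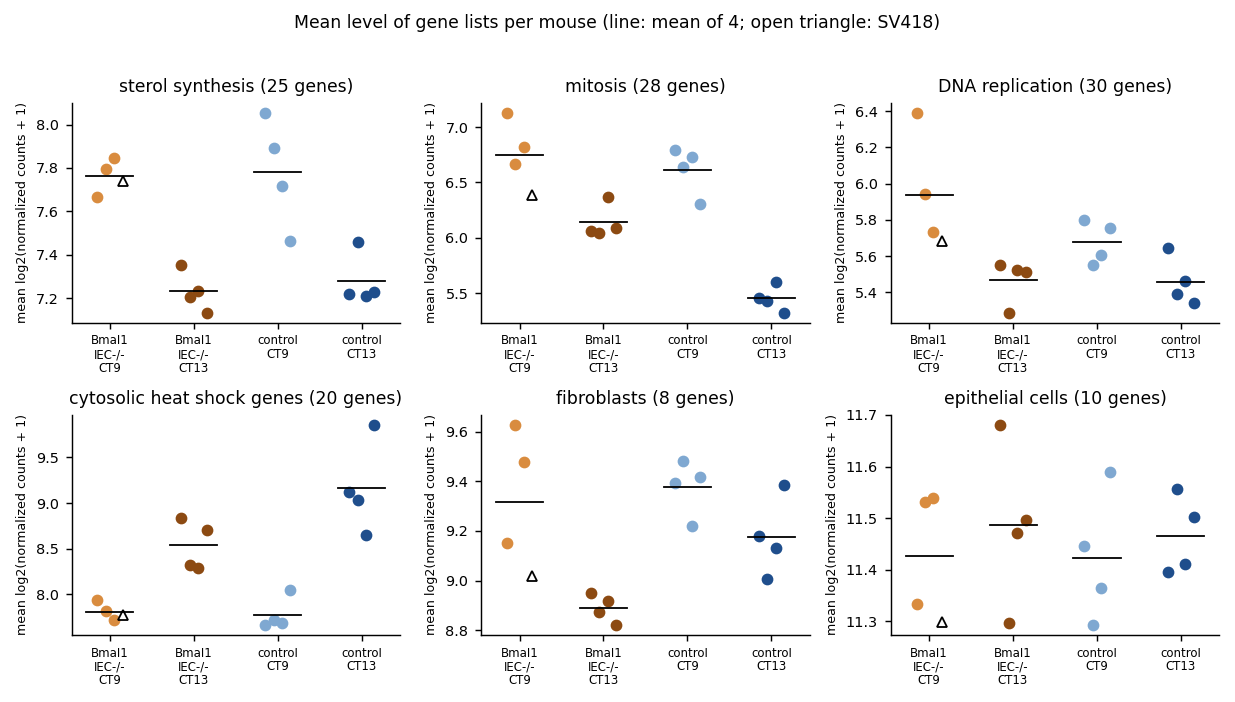
Mean log2(normalized counts + 1) (y axes, not from 0) of the tested members of 6 gene lists in each mouse of the 4 groups (x axes), with lines at the means of 4 mice and an open triangle for SV418. In Bmal1IEC-/- mice the sterol and heat shock lists separate CT9 from CT13 with SV418 among the CT9 mice, whereas in the mitosis and fibroblast lists SV418 is the CT9 mouse nearest to CT13, and the epithelial markers overlap.

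Of 8 fibroblast markers, 3 were lower at CT13, against 0.473% of all genes tested, and none higher. All 3 encode fibrillar collagens. Without SV418 Col6a1 was lower as well (-0.57, adjusted p = 0.0321). Col3a1 (ENSMUSG00000026043, chromosome 1, 45311538 to 45349706), a main collagen of loose connective tissue, had 1526, 2681, 2197 and 1600 normalized counts at CT9 and 1250, 1050, 1117 and 973 at CT13. SV402 was the highest mouse, no values overlapped, and the step was -0.86 (SE 0.14, adjusted p = 0.0135). Col1a1 had 264, 549.5, 505 and 290.4 normalized counts at CT9 and 239.9, 203, 214 and 224 at CT13, a step of -0.87 (SE 0.19, adjusted p = 0.0397). Col1a2 had 698, 1200, 1088 and 592 normalized counts at CT9 and 519, 539.5, 535 and 504.5 at CT13, a step of -0.77 (SE 0.17, adjusted p = 0.0411). SV400 was the lowest CT9 mouse in Col1a1 and SV418 in Col1a2, and neither gene overlapped. In control mice, Col3a1 had a step of -0.62 (adjusted p = 0.00668), Col1a1 of -0.15 (adjusted p = 0.654) and Col1a2 of -0.13 (adjusted p = 0.673). The difference of the steps was not shown for Col1a1 (-0.72, adjusted p = 0.563) or Col1a2 (-0.64, adjusted p = 0.569).

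Fibroblast markers that are not fibrillar collagens were not called with all mice. Among them were Dcn with a step of -0.084 (adjusted p = 0.81), Pdgfra -0.17 (adjusted p = 0.488), Lum -0.26 (adjusted p = 0.473) and Dpt -0.19 (adjusted p = 0.533). The groups overlapped in each. The summed level of the 8 markers was 5176 to 8004 normalized counts at CT9 and 4287 to 4694 at CT13. Smooth muscle markers summed to 14205 to 21283 and 13663 to 17265, with SV418 the lowest CT9 mouse, and had no call among 9 with all mice and 3 lower without SV418. Among the other 15 marker lists, which cover goblet, endothelial, immune, nerve, glial, fat and other cells, no gene was called with all mice, and 1 was without SV418, Plvap of endothelium (-0.42, adjusted p = 0.0474). The 10 epithelial markers summed to 36965 to 45386 and 37724 to 47918 and had no call. Fat cell markers varied between mice of 1 group (112 to 398 and 109 to 439), Adipoq from 0 to 62.5, and were highest at CT9 in SV418. The part of these differences in tissue makeup in the results was not tested.

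Cxcl12, a chemokine made by stromal cells that draws CXCR4-bearing leukocytes, had 523, 554, 552 and 459 normalized counts at CT9 and 342, 301, 360.1 and 354 at CT13. All CT13 mice lay below all CT9 mice, and the step was -0.62 (SE 0.10, adjusted p = 0.0135), against -0.33 (adjusted p = 0.0442) in control mice. It was the 1 call among 16 chemokine and cytokine genes, against 0.473% of all genes tested called lower. The receptor Cxcr4 had a step of -0.82 (adjusted p = 0.432) at 4.38 to 15.8 normalized counts at CT9 and 2.86 to 6.11 at CT13. The adhesion molecule Vcam1 had a step of 0.32 (adjusted p = 0.523).

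Other genes of small adjusted p were spread over several functions. Among those higher, Tra2a, a splicing factor, had 336, 272, 318 and 398 normalized counts at CT9 and 473, 513, 506 and 565 at CT13 and a step of 0.64 (SE 0.10, adjusted p = 0.0135). Fam107a, an actin-binding protein, had 15.6, 16.6, 13.6 and 12.1 normalized counts at CT9 and 40, 34.3, 34.3 and 34.9 at CT13. The step was 1.3 (SE 0.20, adjusted p = 0.0135). The others were Slc25a22, a mitochondrial glutamate carrier (0.76, adjusted p = 0.0375), and Ermp1, a metallopeptidase of the endoplasmic reticulum (0.64, adjusted p = 0.0375). Next came Ints5, a subunit of the Integrator complex (0.60, adjusted p = 0.0371), Ttll3, a tubulin glycine ligase (0.93, adjusted p = 0.0262), and Fam102a (0.73, adjusted p = 0.0263). The kinase gene Nek10 rests on 2, 0, 4 and 2 counts at CT9 and 10, 13, 13 and 9 at CT13 (2.22, adjusted p = 0.0375). None of them overlapped between the times, and of these 8 all but Nek10 were also called higher in control mice. Trdmt1, an RNA methyltransferase, was lower, with 58.6, 42, 42.9 and 54.8 normalized counts at CT9 and 23.2, 14.3, 20.1 and 25.3 at CT13 (step -1.24, SE 0.22, adjusted p = 0.0144).

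Both genotypes moved in one direction in most of these genes. In control mice, 920 genes were higher (6.59%) and 870 lower (6.23%). Of the 29 genes called higher in Bmal1IEC-/- mice, 28 had a control step above 0 and 24 were called there, and of the 66 called lower, 65 were below 0 and 48 called. Read from the control side, 849 of the 920 (92.3%) and 797 of the 870 (91.6%) had a Bmal1IEC-/- step of the same sign, against 68.9% of all genes tested. The median Bmal1IEC-/- step was 0.22 where the control median was 0.51, and -0.27 where it was -0.69. The control genes were picked for their size in control mice, so unequal medians can follow from the choice and are no measure of a weaker step. Over all genes the steps had a Pearson correlation of 0.49, 0.44 without SV418. Genes are not independent replicates, all come from 16 mice, and each genotype has 4 mice of its own at each time.

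**Figure D4:**
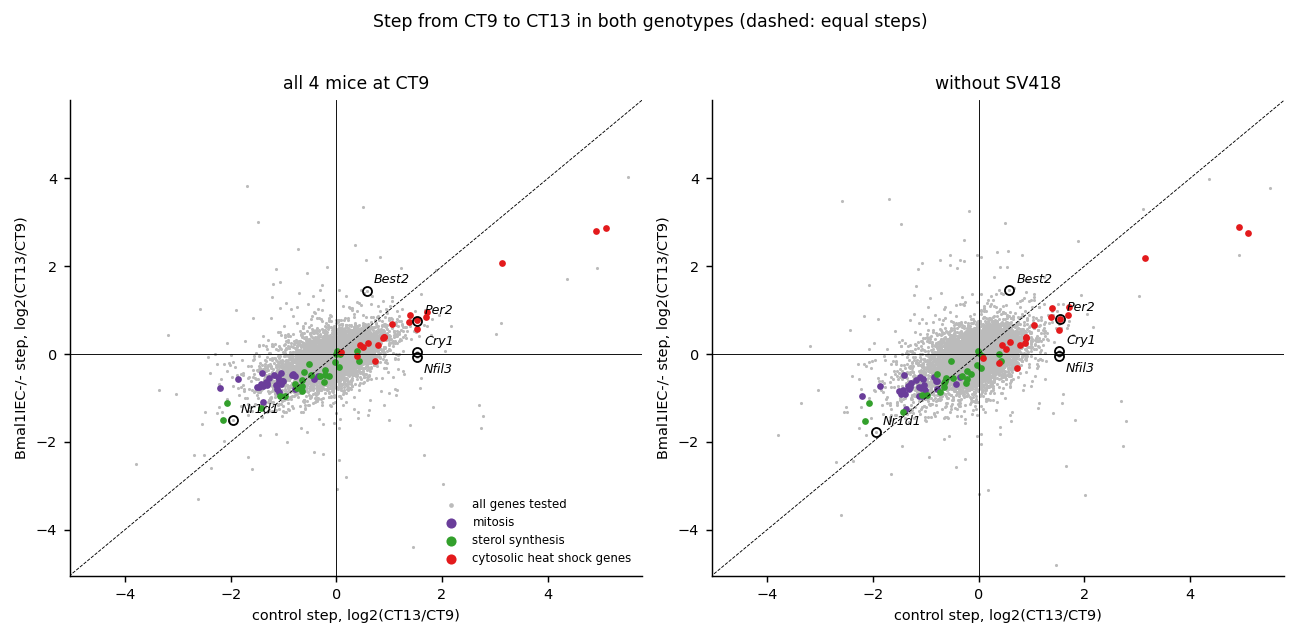
Step from CT9 to CT13 (log2) in control (x axes) against Bmal1IEC-/- mice (y axes) for the 13959 genes tested with all mice, fitted with all mice (left) and without SV418 (right), each point 1 gene, open circles 5 named genes and the dashed line at equal steps. Mitosis and sterol genes lie mostly in the lower left and heat shock genes in the upper right, while Cry1 and Nfil3 lie near the horizontal line on the left, with Bmal1IEC-/- steps of 0.037 and -0.065.

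Like Cry1 and Nfil3, the next genes by p for a difference of steps did not pass the test. Clca4a, of the calcium-activated chloride channel regulator family, was the 1 among them that was called in Bmal1IEC-/- mice. It had 186, 81.4, 49.7 and 106 normalized counts at CT9 and 50.4, 38.1, 33.5 and 40.1 at CT13, where SV410 overlapped the CT13 mice. The step was -1.39 (SE 0.29, adjusted p = 0.0354). Control mice had 155 to 251 at CT9 and 229.6 to 361 at CT13, a step of 0.60 (adjusted p = 0.0961), and the difference was -1.99 (adjusted p = 0.0887). Family members share sequence, so their split is uncertain. Reep6 and Zfp703 had Bmal1IEC-/- steps of -0.21 (adjusted p = 0.588) and 0.25 (adjusted p = 0.365) and control steps of 0.96 (adjusted p = 0.000675) and 1.07 (adjusted p = 3.85e-05). Clec2h (-0.33, adjusted p = 0.294), the collagen Col8a1 (-0.24, adjusted p = 0.681), Acta1, an actin of skeletal muscle (-0.43, adjusted p = 0.496), Ncoa7 (-0.022, adjusted p = 0.961), Acer1 (0.28, adjusted p = 0.262) and the thioesterase Acot2 (0.44, adjusted p = 0.361) were not called in Bmal1IEC-/- mice. All 6 were lower in control mice, where their steps ran from -2.39 (Acta1) to -0.49 (Acer1).

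Ffar2, Hc, Abcc2, Cxcr4, Vcam1, Retnlb and Tff2 are some of the genes that the study names for these mice. None of them was called in the Bmal1IEC-/- step. Ffar2, a receptor of short-chain fatty acids, had 165, 209, 210.0 and 181 normalized counts at CT9 and 165, 160.1, 188 and 176 at CT13, a step of -0.15 (adjusted p = 0.712). Hc, complement component C5, had 7.32 to 15.8 and 12 to 16.2 at the same times, a step of 0.33 (adjusted p = 0.718). Abcc2, an export pump for conjugates, had 11, 13.1, 9.03 and 7.67 normalized counts at CT9 and 5.6, 4.77, 5.02 and 5.24 at CT13, with no overlap on few reads and a step of -0.98 (adjusted p = 0.343). In control mice Abcc2 was lower, -1.24 (adjusted p = 0.0116), and the difference of the steps was not shown (0.26, adjusted p = 0.955). Ffar2 (-0.50, adjusted p = 0.0611) and Hc (-0.34, adjusted p = 0.569) were not called in control mice either. Retnlb, an antimicrobial goblet cell protein, had 23.8, 201, 181 and 46 normalized counts at CT9 and 512, 80.1, 77 and 65.5 at CT13. The step was 0.71 (adjusted p = 0.631), and mice of each group spread over more than the gap between the medians. Tff2, a trefoil peptide, had 3, 0, 0 and 0 counts at CT9 and 0, 0, 0 and 0 at CT13 and was not tested.

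Several groups had no call in Bmal1IEC-/- mice with all mice, among them clock-controlled outputs (22 tested), interferon-stimulated genes (27), MHC class II (11), immediate early genes (22), and ribosome biogenesis (30). Others were glycolysis (20), fatty acid oxidation (28), amino acid response (21), and tight junctions (15). A last set was bile acid and xenobiotic handling (29), antimicrobial genes (17), microbial metabolite receptors and complement (15), phosphate and other transporters (11), brush border (21), enteroendocrine hormones (12), cytosolic ribosomal proteins (81) and the respiratory chain (76). Their medians ran from -0.35 (MHC class II) to 0.18 (interferon-stimulated genes). Without SV418, 5 of these lists gained 1 call each, named after their values were seen. H2-DMa of MHC class II (-0.65, adjusted p = 0.0496), the immediate early gene Egr1 (-1.94, adjusted p = 0.0297), Shmt2 of the amino acid response (-0.51, adjusted p = 0.0499) and the tight junction gene Cldn4 (-0.64, adjusted p = 0.0456) were lower, and the carnitine transporter Slc22a5 (0.42, adjusted p = 0.0413) was higher. The median of MHC class II was then -0.49. With 95 calls in all, a list without a call is no sign that its genes held still.

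Over the whole cycle of Bmal1IEC-/- mice, CT13 was the lowest time in the sterol genes Insig1 (106 ± 19.3 normalized counts, SD, n = 4, against 142 ± 54.1 at CT17 and 252 ± 196 at CT21). The same held for Hmgcs1 (302 ± 23.1, against 443 ± 17.6 at CT17) and Col3a1 (1098 ± 118, against 1308 ± 188). It was the highest in Hsph1 (763 ± 264, with 673 ± 191 at CT17 overlapping it, and 379 ± 133 at CT21) and Best2 (28.8 ± 3.42, against 12.1 ± 4.82 at CT5, the next highest). Tpx2 went on to a lower mean at CT17 (46.1 ± 5.89, from 58 ± 6.08 at CT13), and for Insig1 and Col3a1 the ranges of mean ± SD at CT13 and CT17 overlap. The mean of Nr1d1 went further down, to 17.9 ± 2.31 at CT17 and 6.9 ± 2.34 at CT21. These means over time are descriptions without a test. The genes were named for their step from CT9 to CT13 in these same mice, so an extreme at CT13 can follow in part from that choice.

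**Figure D5:**
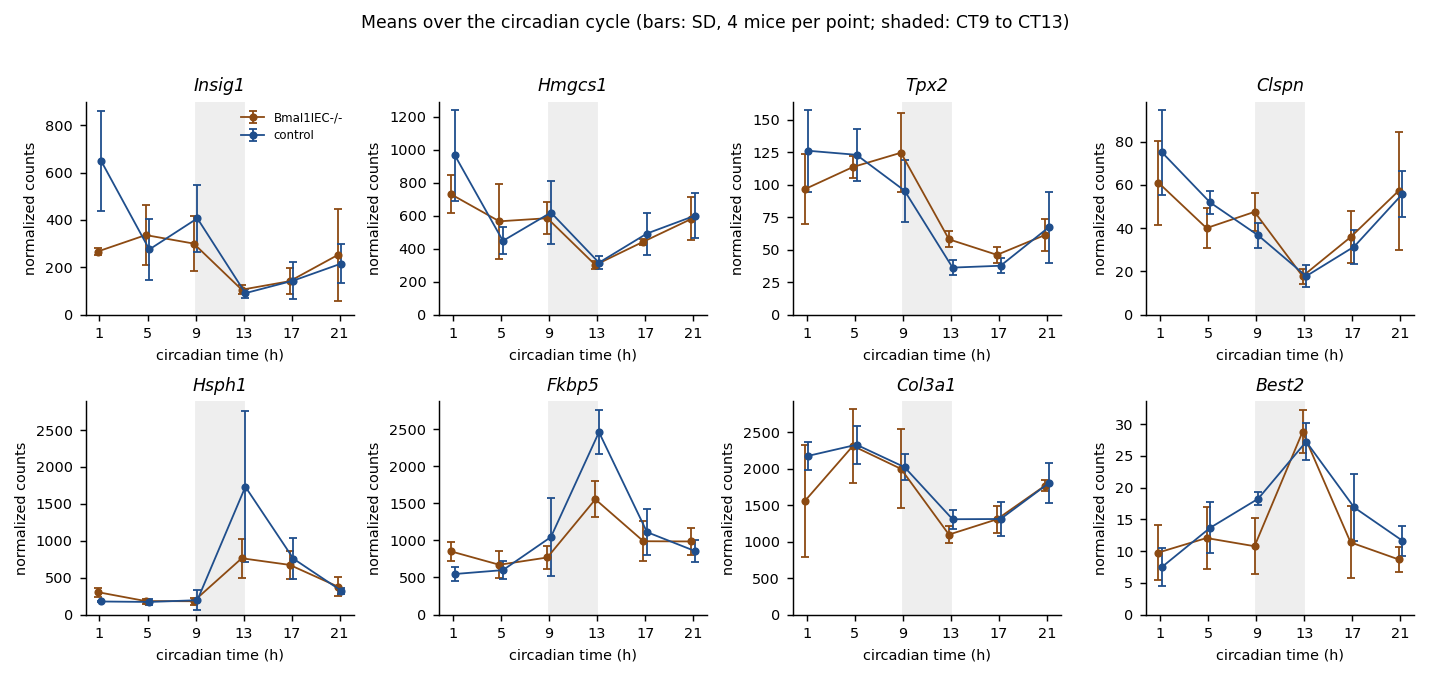
Mean normalized counts (y axes, linear, from 0) of 8 genes over 6 circadian times (x axes, hours) in Bmal1IEC-/- (brown) and control mice (blue), with SD bars of 4 mice per point and the step from CT9 to CT13 shaded. In Bmal1IEC-/- mice Insig1, Hmgcs1, Clspn and Col3a1 have their lowest mean at CT13, and Hsph1, Fkbp5 and Best2 their highest.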

How the data were processed

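Colon RNA of 48 mice was sequenced with a stranded mRNA kit (TruSeq). Per the labels and the study's methods, the authors trimmed reads with Trimmomatic 0.39, aligned them to mm10 with STAR 2.7.5c and counted reads in exons with featureCounts 1.4.6 at a mapping quality of 4 or more. The methods state a filter on low-quality samples, while the table used here holds 48 libraries, 4 in each of 12 groups. The strand setting of the counting is not given in the sources used here, so antisense and overlapping genes are uncertain. The deposited values are raw counts of 55401 genes, and 55141 of the IDs matched GENCODE vM21, from which symbols and coordinates (GRCm38) were taken.

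Counts of the 16 mice at CT9 and CT13 were fitted with edgeR 4.0.16 (filterByExpr, TMM, 1 mean per genotype and time, quasi-likelihood F test, Benjamini-Hochberg adjustment over the genes tested), in R 4.3.3. Contrasts were the Bmal1IEC-/- step, the control step and their difference, with and without SV418. P-values set each step against the spread between mice, which the fit shares over the 4 groups. The Bmal1IEC-/- CT9 mice spread most, with a median SD of 0.256 (log2 scale) against 0.16 to 0.183 in the other groups. Per-mouse values are counts divided by size factors of DESeq2 1.42.0. The fitting code was run on simulated counts in which 200 genes were changed, which checks the code and not the steps reported here. Replicates of a group differed by more than sampling noise, so no library was counted as a duplicate. Promoter windows and sequences are RefSeq's (GRCm38.p6), matched by symbol for 10523 of 13958 symbols.

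Named genes were protein-coding and were the clock genes, the 12 genes of smallest adjusted p in each direction past a fold of 1.5, the 3 called members of smallest adjusted p in each list, the 6 in each direction for the difference of the steps, and genes named in the study. Some genes that this rule or the lists hold are not reported here. Members and gene lists were chosen with earlier results of these data known. Alternatives were other size factors, no filter, DESeq2, all 48 mice, 46 without SV384 and SV385 of Bmal1IEC-/- CT1, a test against the fold, the Bmal1IEC-/- mice alone and leaving out each mouse. The study's principal component analysis held 46 colon samples, and its text does not name those left out, so they need not be this pair.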

Additional observations from a re-analysis of the deposited data

Results flagged for a closer look

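In groups of 4 mice, Dixon's ratio of the gap to the nearest mouse over the range passed the critical value for 4 values in 7 of 129 groups of named genes, and chance alone gives about 1 in 20. One of these values came from SV418. Its 161 normalized counts of Nr1d2 at CT9 lay under the 227 to 235 of the other mice of that time. At CT13, SV448 had 28.6 normalized counts of Arntl2, a paralog of Bmal1, where the other mice had 13.6 to 15.7. SV395 stood apart in 3 genes at CT13, with 39.98 normalized counts of Fam107a (34.3 to 34.9 in the others), 51.2 of Vcam1 (58.2 to 58.6) and 512 of Retnlb (65.5 to 80.1). At CT9, SV400 had 724 normalized counts of Top2a (381 to 435 in the others) and 2.75 of Tff2, which rests on 3 reads and was listed at 0 in the others.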

How the results depend on the processing

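The Bmal1IEC-/- count of 95 genes was 96 with DESeq2's size factors in edgeR and 97 with 48 mice in the fit. It was 543 without a filter on low counts, 215 by DESeq2, 175 with 46 mice, 37 with the Bmal1IEC-/- mice alone and 0 when tested against a fold of 1.5 (edgeR's glmTreat, 195 genes at an unadjusted p under 0.05). Leaving out 1 mouse gave 0 to 404 genes, the ends being SV450 and SV418. Without SV418, the count of 404 became 978 without a filter, 154 with the Bmal1IEC-/- mice alone and 1 against the fold. The control count of 1790 was 72 against the fold and 1005 to 2086 with 1 mouse left out, lowest without SV397. The difference of the steps, 1 gene, became 222 without a filter, 15 by DESeq2, 3 with 48 mice, 3 with 46 and 0 against the fold (157 at an unadjusted p under 0.05), and 1 to 10 with 1 mouse left out, highest without the control mouse SV421. Without SV418 it became 352, 45, 5, 7 and 0 in that order (207 at an unadjusted p under 0.05). The causes were not tested.

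Of the 34 called genes named, 34 stayed called with DESeq2's size factors, 34 by DESeq2, 34 without SV418 and 29 with 48 mice in the fit. With the Bmal1IEC-/- mice alone, 20 of 33 did. It was 23 without SV400 or SV402, 18 without SV410 or SV449, 16 without SV395, 8 without SV448 and 0 without SV450. None changed direction. Ciart, not called with all mice, was called by DESeq2 too. With 1 Bmal1IEC-/- mouse left out, the steps of 8 genes that were not called took both signs: Arntl (-0.069 to 0.24), Rora (-0.028 to 0.25), Arntl2 (-0.099 to 0.37), Cry1 (-0.026 to 0.066), Tef (-0.0015 to 0.17), Nfil3 (-0.21 to 0.012), Ncoa7 (-0.097 to 0.035) and Retnlb (-0.61 to 1.18). No paired analysis was possible because no replicate number is shared between the groups. Depth limits genes of few reads, such as Best2 and Nek10.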

Other observations

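A further 5 genes that were lower at CT13 in Bmal1IEC-/- mice were picked from the calls after their values were seen, and form no list or theme that was tested. Col4a2, a collagen of basement membranes, had 375, 564, 562 and 333 normalized counts at CT9 (SV400, SV402, SV410 and SV418) and 299.8, 273, 294 and 259 at CT13 (SV395, SV448, SV449 and SV450), a step of -0.70 on the log2 scale (adjusted p = 0.0354, edgeR's quasi-likelihood test). Loxl1, which cross-links elastin, went from 25.2 to 35.9 normalized counts at CT9 to 6.98 to 18.4 at CT13 (-1.11, adjusted p = 0.0476). Col6a3 (-0.64, adjusted p = 0.0411), the metalloprotease Adam19 (-0.67, adjusted p = 0.0171) and Procr, the endothelial receptor of protein C (-1.07, adjusted p = 0.0171), were lower as well, with no overlap in any of the 5. None was called in control mice, and none passed the test of the difference between genotypes.

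Neat1, the long RNA that builds paraspeckles, had 6733, 6298, 6978 and 8292 normalized counts at CT9 and 5043, 3852, 4725 and 4362 at CT13, a step of -0.65 (adjusted p = 0.0171), and -0.61 (adjusted p = 0.00266) in control mice. SV418 was its highest mouse.

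Of 2 immunoglobulin V segments called, Ighv9-3 was higher, from 9.15 to 33.9 normalized counts at CT9 to 54.4 to 354 at CT13 (2.999, adjusted p = 0.0402), and Igkv10-96 lower, from 165 to 406 to 47.7 to 82.9 (-1.99, adjusted p = 0.0402). V segments share sequence with close copies, and plasma cell markers had no call.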
